A study of Mus musculus with 6 samples.

Results

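Mural cells sit on the outer wall of small blood vessels. In the lumbar spinal cord, 268 of 42628 nuclei (0.629%) were taken as mural. A nucleus was a member when at least 2 of the 7 genes Rgs5, Pdgfrb, Notch3, Kcnj8, Abcc9, Acta2 and Myh11 were detected. It also had at most 1 UMI over the endothelial genes Cldn5 and Flt1, none of the fibroblast gene Dcn, and at most 1 over the neuronal genes Snap25 and Rbfox3. A UMI (unique molecular identifier) marks 1 captured RNA molecule. Only nuclei with at least 500 UMIs and with mitochondrial transcripts under 5% of UMIs were used.

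All mice were C57BL/6, 110 days old, and carried SOD1G93A, a mutant human superoxide dismutase transgene that models amyotrophic lateral sclerosis in mice. There were 3 libraries of SOD1G93A/PHD1-/- and 3 of the control genotype SOD1G93A/PHD1+/+, shortened to PHD1-/- and PHD1+/+. PHD1, encoded by Egln2, is an oxygen-sensing prolyl hydroxylase that marks the alpha subunits of hypoxia-inducible factor (HIF) for degradation. Nuclei came from frozen lumbar cord and were profiled with the 10x Genomics 3' kit. No library without the SOD1G93A transgene was analysed here, so no value below separates the transgene from the cell type, and the labels name neither the deleted part of Egln2 nor the number of mice in a library.

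Pericytes lie within the basement membrane of capillaries, and smooth muscle cells wrap arterioles. PDGF-BB from endothelial cells recruits pericytes through the receptor PDGFRB, and NOTCH3 is needed by arteriolar smooth muscle. Pericytes help to keep the barrier between blood and cord closed. The smooth muscle protein actin ACTA2 and the myosin heavy chain MYH11 form the contractile apparatus. KCNJ8 and ABCC9 together form the ATP-sensitive potassium channel that is typical of brain pericytes.

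The mural nuclei numbered 42, 27 and 50 in PHD1-/- replicates 1 to 3, and 86, 33 and 30 in PHD1+/+ replicates 1 to 3. Their UMIs summed to 47262, 36296 and 80252 in PHD1-/- and to 96120, 55073 and 50538 in PHD1+/+. Each mural nucleus held 500 to 7670 UMIs. The median UMI count per mural nucleus was 702, 1027 and 1415.5 in PHD1-/- libraries and 821, 1257 and 1077 in PHD1+/+ libraries. Among all nuclei of the same libraries the medians were 1365, 2731.5 and 2818 in PHD1-/- and 1363, 2362.5 and 2974 in PHD1+/+, so mural nuclei were below the median of their library in all 6.

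Both replicate 1 libraries stood apart. Their barcodes came from another list, and 86 barcodes were shared between them, but no library shared a barcode with another among the mural nuclei. Xist, a transcript of the inactive X chromosome, was detected in 63.3% of nuclei in PHD1-/- replicate 1 and 33.9% in PHD1+/+ replicate 1, beside the Y-linked Ddx3y in 4.63% and 8.50%. In replicates 2 and 3 Xist was in at most 0.213% of nuclei and Ddx3y in 22.9% to 29.0%. The subsets and the genotype comparison are therefore also given for replicates 2 and 3 alone.

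**Figure D1:**
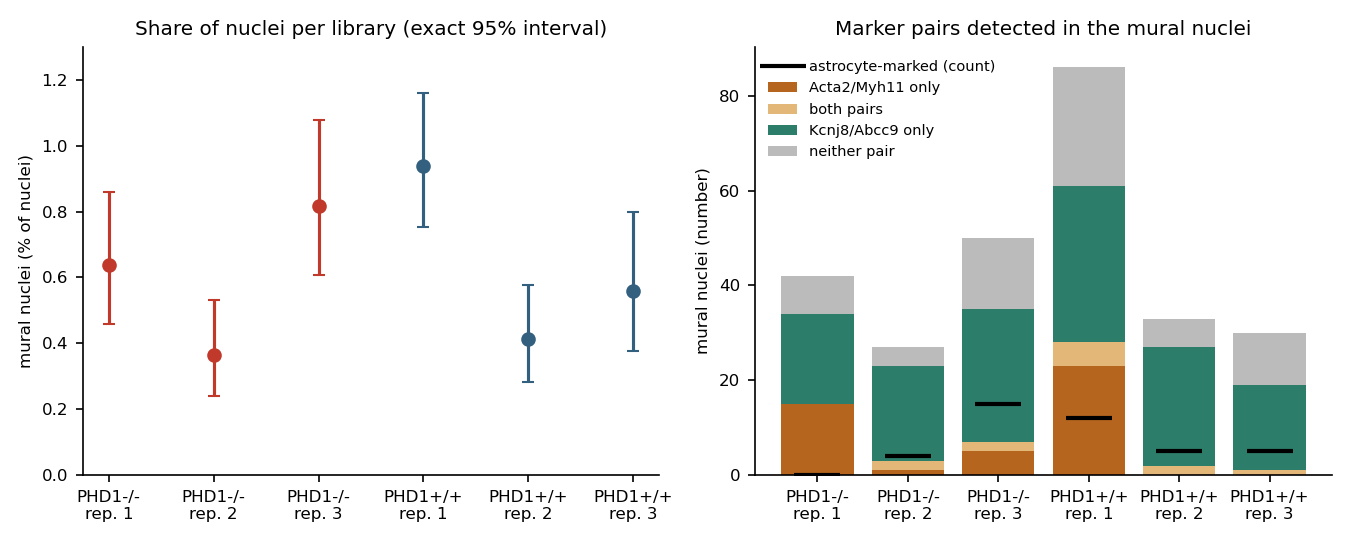
Left, mural nuclei as a percentage of all nuclei in each library, PHD1-/- in red and PHD1+/+ in blue, with exact 95% intervals for counting error. Right, the number of mural nuclei in each library by which of the marker pairs Acta2/Myh11 and Kcnj8/Abcc9 was detected; black lines give the number with at least 5 of 10 astrocyte markers. Nuclei with Acta2 or Myh11 alone are mostly in the replicate 1 libraries (15 and 23).

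The 7 genes chose the members, so their values are a description. Over all mural nuclei, Pdgfrb was detected in 196, Notch3 in 165, Rgs5 (a regulator of G-protein signalling abundant in pericytes) in 149, Abcc9 in 129, Kcnj8 in 82, Acta2 in 39 and Myh11 in 36. Exactly 2 of the 7 genes were detected in 130 nuclei, 3 in 49, 4 in 60, and 5 or more in 29. Levels are given in CPM, a gene's share of all UMIs that the mural nuclei of 1 library held together, on the usual counts-per-million scale. Pdgfrb was at 931, 1130 and 1047 CPM in PHD1-/- and 843, 1307 and 851 CPM in PHD1+/+. Abcc9 was at 317, 1626 and 1396 CPM in PHD1-/- and 343, 1217 and 712 CPM in PHD1+/+, low in both replicate 1 libraries. Acta2 ran the other way, with 1650, 0 and 49.8 CPM in PHD1-/- (78, 0 and 4 UMIs) and 468, 18.2 and 0 CPM in PHD1+/+ (45, 1 and 0 UMIs). Of microglia, which should lack these genes, 0 to 0.271% per library met the whole rule, at median depths of 1023 to 1623 UMIs. These were 1 nucleus in PHD1-/- replicate 1 (0.203%), 2 in PHD1+/+ replicate 1 (0.271%) and 0 elsewhere, beside mural shares of 0.638% and 0.939% of all nuclei in those libraries. How these microglia came to hold mural RNA was not tested. At least 2 of the 7 genes were nevertheless detected in 3.65% of microglia in PHD1-/- replicate 1 and 4.74% in PHD1+/+ replicate 1, against at most 0.871% in the other 4 libraries. Microglia are not the highest background. Of nuclei with at least 5 of 10 astrocyte markers, 0%, 2.65% and 3.01% met the whole rule in PHD1-/- replicates 1 to 3. In PHD1+/+ replicates 1 to 3 these were 1.64%, 1.42% and 2.76%. Per library, Notch3 was detected in 9.17% to 25.3% of astrocyte nuclei and Pdgfrb in 9.32% to 13.2%.

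The label was checked against genes outside the rule. Vtn, which encodes the adhesive matrix protein vitronectin made by pericytes of the central nervous system, was detected in 91.3% of the 138 nuclei with 3 or more rule genes and in 40% of the 130 with exactly 2. Just outside the threshold, it was detected in 6.31% of 1078 nuclei that had 1 rule gene and passed the other criteria. At least 3 of 24 pericyte genes outside the rule were detected in 94.2% of nuclei with 3 or more rule genes, in 46.9% of those with 2, and in 9.09% of those with 1. The nuclei at the edge of the rule were therefore mixed. At least 5 of 10 astrocyte markers were detected in 41 mural nuclei (0, 4 and 15 in PHD1-/-, 12, 5 and 5 in PHD1+/+), which held 29.1% of the mural UMIs. Of these 41, 37 had exactly 2 rule genes, and 24 had the combination of Pdgfrb and Notch3. At least 5 markers were also found for oligodendrocytes in 22 mural nuclei and for neurons in 17, and in 4 or fewer for each of the other classes. Leaving out the nuclei marked by any other class removed 78 and left 190. Both of these smaller sets were defined after the values were seen. How these nuclei came to hold markers of another class was not tested.

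**Figure D2:**
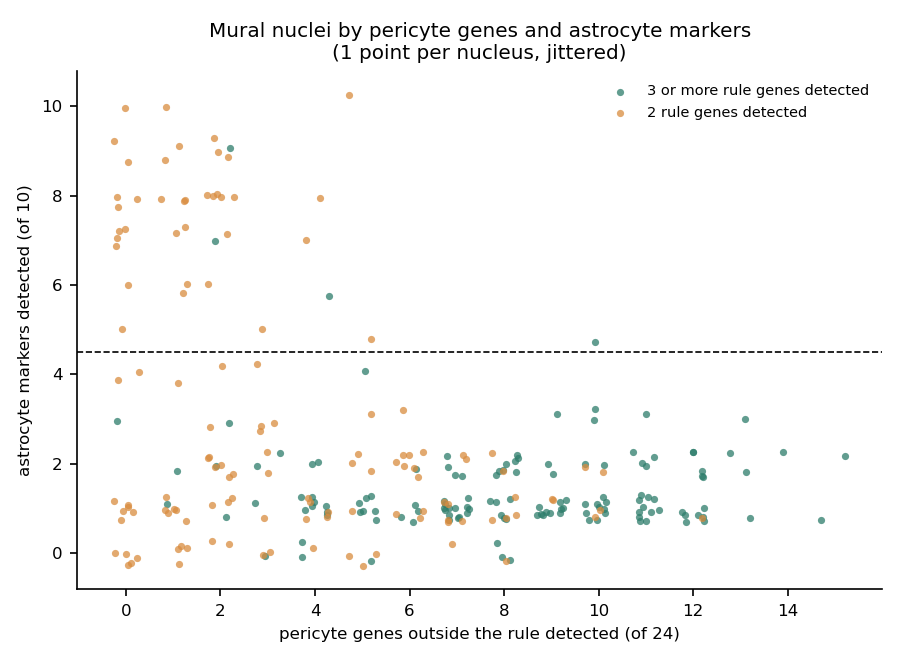
Each point is 1 mural nucleus, placed by the number of 24 pericyte genes outside the rule that were detected (x axis) and the number of 10 astrocyte markers (y axis), with a small random shift. Green points had 3 or more rule genes and orange points 2; above the dashed line lie the 41 nuclei with 5 or more astrocyte markers, 37 of them orange.

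The mural nuclei expressed a set of pericyte genes that averaged low over the other nuclei. Among the 2939 genes outside the rule with at least 30 UMIs in mural nuclei, 679 (23.1%) were higher in mural than in other nuclei of the same library in all 6 libraries, and 384 (13.1%) were lower in all 6. Differences are of mean log2(CPM + 1) over the 6 libraries, and since the same nuclei were chosen by their RNA they are descriptions without a test. Vtn was at 2941, 4849 and 3402 CPM in mural nuclei of PHD1-/- libraries and 1841, 3722 and 2038 CPM in those of PHD1+/+ libraries. Its mean was 3132 ± 1120 CPM in mural nuclei and 23.9 ± 17.2 CPM in other nuclei (SD, n = 6), a difference of 7.30. Vtn (chr11:78499091-78502324, plus strand, GRCm38) was thus high in every library, and its lowest mural value lay far above its other-nuclei mean. Atp13a5, a P5-type transport ATPase, was at 614, 2728 and 2343 CPM in mural nuclei of PHD1-/- libraries and 655, 2161 and 1761 CPM in those of PHD1+/+ libraries. Its means were 1710 ± 889 CPM in mural nuclei and 13.8 ± 5.80 CPM in other nuclei (SD, n = 6). As with Abcc9, the lowest mural values were those of the replicate 1 libraries.

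The 25 genes with the largest differences (5.29 to 7.53) belonged to several roles. Among RNAs without a known protein, Tbx3os1 averaged 483 ± 166 CPM in mural nuclei and 1.90 ± 1.82 CPM in others, and Carmn, a long noncoding RNA that acts with myocardin on smooth muscle genes, averaged 233 and 0.908 CPM. Tbx3os1 is annotated as antisense, and since no source used here says whether counting used strand, its reads cannot be told apart from those of an overlapping gene. Morrbid, a further long noncoding RNA, differed by 6.15. The receptors were Ednra, the endothelin receptor on which the constrictor endothelin acts (246 against 4.16 CPM), Tbxa2r, the thromboxane receptor (101 against 1.00 CPM), and Gper1, a receptor for oestrogen (160 against 1.14 CPM). Ggt5, an enzyme at the cell surface that cleaves leukotriene C4 and glutathione, was at 172 against 2.64 CPM. Transporters were Slc38a11 (452 against 2.96 CPM), Slc6a20a, a carrier of proline (614 against 9.83 CPM), and Slc16a12, a carrier of creatine (295 against 4.72 CPM). Matrix and adhesion genes were Itga1, Lamc3, Igfbp7, Mfge8 and the pericyte surface protein Cd248. Ndufa4l2 (171 against 3.08 CPM), a HIF target that lowers the activity of respiratory complex I, and Higd1b (158 against 3.54 CPM), of the hypoxia-inducible domain family, were among the 25 as well. Pla1a, Rem1, Pla2r1, Frk and Tbx2 also belonged to them.

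The neighbouring vascular classes shared some of these genes. Vtn averaged 548 CPM in fibroblast nuclei, Slc6a20a 312 CPM and Slc16a12 102 CPM. Atp13a5 averaged 354 CPM in fibroblast and 149 CPM in endothelial nuclei. All of these lay below the mural means. Igfbp7 averaged 1021 ± 194 CPM in mural nuclei (SD, n = 6) and 803 CPM in endothelial nuclei, and was higher in mural nuclei in 4 of 6 libraries. Itga1 was higher in mural than endothelial nuclei in 5 of 6 libraries, and the other 23 genes in all 6, against 16.4% of all genes. Some libraries held few endothelial nuclei: 10 for PHD1-/- replicate 2, 10 for PHD1+/+ replicate 3 and 22 for PHD1+/+ replicate 2. The rest held 39 (PHD1-/- replicate 3), 88 (PHD1-/- replicate 1) and 157 (PHD1+/+ replicate 1). Median depths of endothelial nuclei were 798 to 1491 UMIs, so low genes could be missed and these library counts are weak. No endothelial nucleus had 2 or more rule genes. Against fibroblast nuclei, Lamc3 was higher in mural nuclei in 4 libraries and Tbx2 in 5, and the rest in all 6, against 11.7% of all genes. Fibroblast nuclei were also few, from 28 (PHD1-/- replicate 2) to 97 (PHD1-/- replicate 3) in a library. All 25 were higher in mural nuclei than in astrocytes in all 6 libraries, against 12.8% of all genes. The same 25 genes also led after the 41 astrocyte-marked nuclei were left out.

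**Figure D3:**
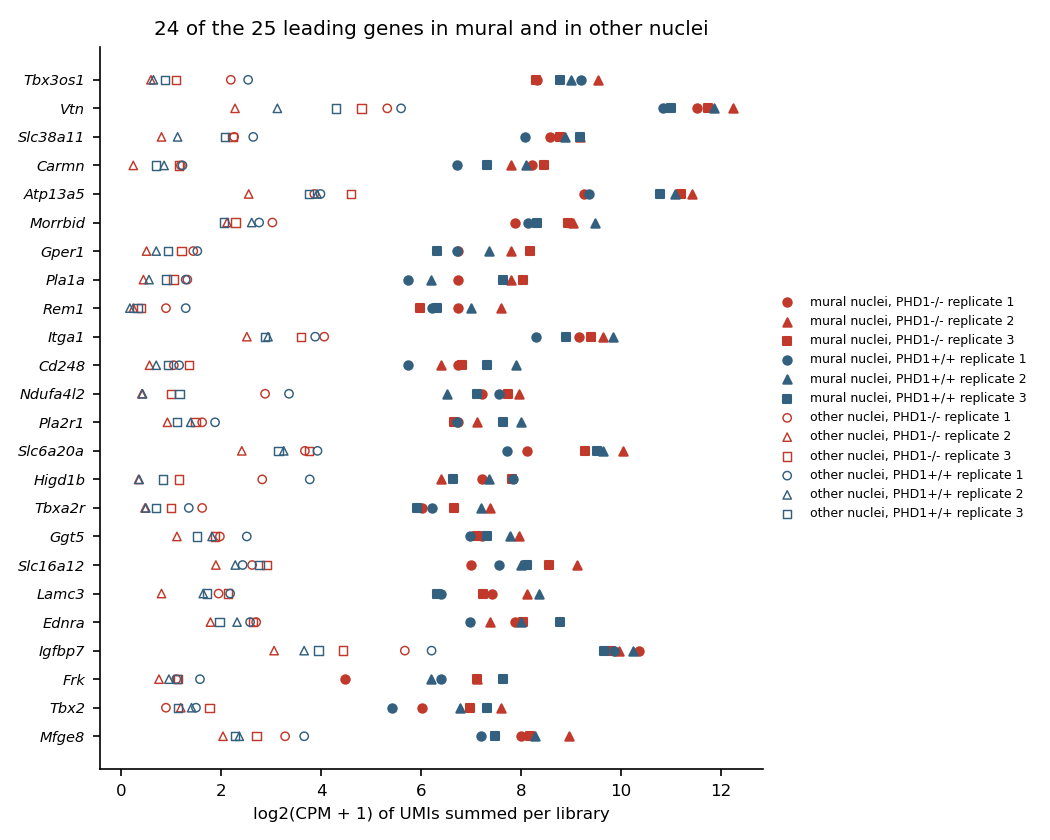
Level of 24 of the 25 leading genes in mural nuclei (filled) and in all other nuclei (open) of each library, as log2(CPM + 1); red is PHD1-/-, blue PHD1+/+, and the marker shape gives the replicate. Filled and open points do not overlap for any of the 24. The choice of the genes required the filled point to lie above the open one of the same library.

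The gene lists were read against the 23.1% of all genes higher in mural nuclei in every library and the 13.1% lower. Of 17 pericyte genes outside the rule with at least 30 UMIs, all 17 were higher in all 6 libraries, with a median difference of 5.29. Of 13 smooth muscle genes, 5 were higher in all 6, 1 was lower, and the median was 2.55. Cald1, the actin-binding protein caldesmon, averaged 969 ± 238 CPM in mural nuclei and 49.9 ± 16.6 CPM in others (SD, n = 6), higher in all 6. Tagln, which encodes the smooth muscle actin-binding protein transgelin, was at 889, 0 and 12.5 CPM in PHD1-/- and 177, 18.2 and 0 CPM in PHD1+/+, so its mural level lay almost wholly in the replicate 1 libraries. Kcnma1, a calcium-activated potassium channel of smooth muscle and neurons, was lower in mural nuclei (245 against 598 CPM, lower in all 6).

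Of 20 genes for contraction and calcium entry, 15 were higher in all 6 libraries and 3 lower, with a median difference of 1.76. Ano1, a calcium-activated chloride channel that depolarizes pericytes, averaged 371 ± 116 CPM in mural nuclei and 8.77 ± 1.55 CPM in others (SD, n = 6). It was above the other nuclei in every library. Genes of the relaxing nitric oxide and cGMP pathway were also higher in all 6: Gucy1a1, a subunit of the nitric oxide receptor, by 3.47, Pde5a, which degrades cGMP, by 4.32, Mrvi1, a partner of the cGMP-dependent kinase, by 5.20, and Prkg1, that kinase, by 1.25. Cacna1c, the L-type calcium channel, averaged 882 CPM in mural nuclei and 442 CPM in others.

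Of 10 transporters and pumps, 8 were higher in all 6 libraries, with a median difference of 4.26. Slc30a10, a manganese exporter, averaged 191 and 6.93 CPM in mural and other nuclei. All 18 basement membrane and matrix genes were higher in all 6 libraries, with a median of 2.84, and 16 were without the 41 astrocyte-marked nuclei. They included Lama2, a laminin chain, at 746 against 55.8 CPM, Nid1, which links laminin to collagen IV, at 179 against 10.1 CPM, and Col4a1 at 163 against 23.0 CPM. In fibroblasts, however, Lama2 stood at 1577 CPM and Nid1 at 356 CPM, above the mural nuclei in all 6 libraries.

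Signalling lists stood closer to the rest of the cord. Of 8 PDGF, angiopoietin and TGF-beta genes outside the rule, 3 were higher in all 6 libraries, with a median of 0.32. Of 6 Notch pathway genes, 2 were, with a median of 0.73. Jag1, a ligand of NOTCH3, averaged 96.1 CPM in mural nuclei and 5.38 CPM in others. Among 4 prolyl hydroxylase and HIF genes with enough UMIs, Epas1, which encodes HIF-2 alpha, was higher in all 6 (203 ± 87.6 against 13.8 ± 7.64 CPM, SD, n = 6). Its mean in endothelial nuclei was 719 CPM, above the mural nuclei in all 6. Of 15 HIF targets and glycolysis genes, 8 were higher in all 6, with a median of 0.75, but only 4 were without the 41 astrocyte-marked nuclei. Of 6 interferon-stimulated genes, 3 were: Ifitm1 (119 against 4.37 CPM) and Ifitm3 (173 against 32.9 CPM), both membrane proteins that restrict virus entry, and H2-K1, a class I presentation gene (122 against 33.2 CPM). The only complement, cytokine and fibrosis gene with enough UMIs differed by 0.37 and was not higher in every library. For comparison with RNA quality and other cells, 18 of 34 ribosomal protein genes and 6 of 8 mitochondrial transcripts were higher in all 6. Among markers of other classes, 3 of 10 for astrocytes were higher and none lower, while all 6 for neurons were lower with a median of -2.67, and 6 of 10 for oligodendrocytes were lower with a median of -1.21. Without the astrocyte-marked nuclei, 2 of the 8 PDGF, angiopoietin and TGF-beta genes, 1 of the 6 Notch genes and 2 of the 6 interferon-stimulated genes were higher in all 6. So were 21 ribosomal protein genes and 4 mitochondrial transcripts. These list counts kept the genes with at least 30 UMIs in all mural nuclei. Of the genes with at least 30 UMIs in the smaller set, 542 of 1911 were higher in all 6. The filters differ, so that share is not a like background for the list counts.

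In the replicate 1 libraries the contractile and the channel genes were largely detected in different mural nuclei. The rule asked for 2 of the same 7 genes, and median depths there were 702 and 821 UMIs. A low overlap of the pairs is therefore partly set by the choice of nuclei. Whether the overlap was lower than that choice alone would give was not tested. Smooth-muscle-marked nuclei, with Acta2 or Myh11 and neither Kcnj8 nor Abcc9, numbered 44. Pericyte-marked nuclei, with Kcnj8 or Abcc9 and neither Acta2 nor Myh11, numbered 143. Both pairs were detected in 12 nuclei (0, 2 and 2 in PHD1-/- and 5, 2 and 1 in PHD1+/+) and neither in 69. In PHD1+/+ replicates 2 and 3, every mural nucleus with Acta2 or Myh11 also had Kcnj8 or Abcc9. Outside replicate 1, only PHD1-/- replicate 3 had more smooth-muscle-marked nuclei (5) than nuclei with both pairs (2). In PHD1-/- libraries 15, 1 and 5 nuclei were smooth-muscle-marked, and in PHD1+/+ libraries 23, 0 and 0, so 38 of the 44 came from the replicate 1 libraries. A single UMI of Acta2 or Myh11 was enough for the mark, and in the same 2 libraries Acta2 was also detected in 3.67% and 7.25% of astrocytes and in 1.62% and 2.85% of microglia, against at most 1.00% and 0.436% in the other 4. The part of this background in the mark was not tested. At least 5 markers of another class were found in 17 of the 44 nuclei (4, 1 and 3 in PHD1-/- libraries and 9 in PHD1+/+ replicate 1), among them the only one of PHD1-/- replicate 2. The other 27 were 11, 0 and 2 in PHD1-/- and 14, 0 and 0 in PHD1+/+. Pericyte-marked nuclei were spread over all libraries, with 19, 20 and 28 in PHD1-/- and 33, 25 and 18 in PHD1+/+.

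Over all libraries, genes outside the rule divided the same way. With UMIs summed over libraries (62262 in smooth-muscle-marked and 156603 in pericyte-marked nuclei), differences of log2(CPM + 10) exceeded 1 for 199 of 1815 genes (11%) and were below -1 for 556 (30.6%), with a median of -0.44. Tagln had 56 UMIs in smooth-muscle-marked and 2 in pericyte-marked nuclei (899 against 12.8 CPM). Myl9, the regulatory light chain of smooth muscle myosin, had 72 and 26 UMIs (1156 against 166 CPM), and Tpm2, a tropomyosin of the thin filament, had 40 and 5. All of these were higher in the smooth-muscle-marked nuclei. Crip1, a LIM protein, had 75 and 9 UMIs. Cnn1, Myocd and Lmod1, which encode calponin, the smooth muscle coactivator myocardin and leiomodin, had 7, 5 and 8 UMIs in smooth-muscle-marked nuclei and 0 in pericyte-marked ones; all 7 of Cnn1 came from PHD1-/- replicate 1.

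Among the other genes leading on the smooth muscle side, 5 were concentrated in the same nucleus of PHD1-/- replicate 1, which held 6752 UMIs. It gave all 76 UMIs of Lgals7 and all 21 of Krt15, both epithelial genes. It also gave 22 of 33 UMIs of S100a11, a calcium-binding protein, 38 of 51 of the ribosomal protein gene Rplp0 and 29 of 48 of Rpl31, which had 6, 16 and 17 UMIs in pericyte-marked nuclei. Without that nucleus S100a11 was at 198 against 38.3 CPM, Rplp0 at 234 against 102 CPM and Rpl31 at 342 against 109 CPM in smooth-muscle-marked and pericyte-marked nuclei. The differences of Tagln (5.43), Myl9 (2.87), Tpm2 (3.93) and Crip1 (4.30) without it were close to those with it, as it held 5 or fewer of their UMIs. Without the nuclei marked by another class, Tagln had 25 UMIs in smooth-muscle-marked and 1 in pericyte-marked nuclei, Myl9 had 31 and 24, Tpm2 had 25 and 4, and Vtn had 9 and 814, out of 29795 and 115873 UMIs.

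On the other side, Vtn had 14 UMIs in smooth-muscle-marked and 857 in pericyte-marked nuclei (225 against 5472 CPM). Atp13a5 had 7 and 469 UMIs, and Pde8b, a phosphodiesterase that degrades cAMP, had 5 and 338. Both pairs of values were lower in the smooth-muscle-marked nuclei. Ecm2, E130308A19Rik, Gm12002, Cd248, Cpm, Itga4 and Zic4 had 0 UMIs in smooth-muscle-marked nuclei and 29 to 55 in pericyte-marked ones; Gm12002 is annotated as antisense, with the same limit as above. Cald1 was in both, with 57 and 223 UMIs (915 against 1424 CPM). By list, 0 of 17 pericyte genes had a difference above 1 and 17 below -1, with a median of -2.45. For smooth muscle genes the counts were 6 and 1 of 12, with a median of 1.09. For transporters they were 0 and 8 of 10, for basement membrane and matrix 0 and 10 of 18, and for contraction and calcium entry 3 and 5 of 18.

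Because the smooth-muscle-marked nuclei lay mainly in the replicate 1 libraries, the subsets were also compared within those libraries alone, where 51240 and 51372 UMIs were summed. There 129 of 404 genes (31.9%) had a difference above 1 and 75 (18.6%) below -1, with a median of 0.35. Tagln differed by 5.20, Myl9 by 2.66 and Crip1 by 3.52, and Tpm2 had 40 UMIs in smooth-muscle-marked and 0 in pericyte-marked nuclei. Vtn differed by -4.02, Pde8b by -4.65 and Atp13a5 by -3.28. Each of these kept its direction. The 7 genes named above with 0 UMIs in smooth-muscle-marked nuclei had only 1 (Itga4), 3 (Ecm2), 4 (Zic4), 5 (Cd248 and Cpm), 6 (Gm12002) and 7 (E130308A19Rik) in pericyte-marked ones there, so most of their UMIs came from replicates 2 and 3. Of 7 smooth muscle genes 5 had a difference above 1 and 1 below -1 (median 2.66), and of 7 pericyte genes 0 and 6 did (median -3.28). Of the 44 smooth-muscle-marked nuclei, some also carried astrocyte markers (7 in PHD1+/+ replicate 1), and 4 of 6 astrocyte markers had a difference above 1 over all libraries. Without the astrocyte-marked nuclei, 156 of 1628 genes (9.58%) had a difference above 1 and 535 (32.9%) below -1; within the replicate 1 libraries these were 112 (35.3%) and 76 (24%) of 317. Tagln then had 49 UMIs in smooth-muscle-marked and 1 in pericyte-marked nuclei, Myl9 had 60 and 25, and Vtn had 10 and 849, each in the same direction as with them.

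With replicates 2 and 3 alone, only 6 smooth-muscle-marked nuclei remained, with 11022 UMIs against 105231 in pericyte-marked nuclei. There the smooth muscle genes did not divide the subsets. Myl9 had 0 and 15 UMIs, Tpm2 had 0 and 5, Tagln had 1 and 1, and Cnn1, Myocd and Lmod1 had 0 in both. The higher Myl9 and Tpm2 in smooth-muscle-marked nuclei was thus a result of the replicate 1 libraries, and Tagln could not be read at 1 UMI. Vtn (4 and 686 UMIs), Atp13a5 (2 and 416) and Pde8b (2 and 250) were again lower in smooth-muscle-marked nuclei. Of 3 smooth muscle genes 0 had a difference above 1 and 2 below -1, and of 17 pericyte genes 0 and 13 did, beside 77 (7.6%) and 436 (43%) of 1013 genes in all. Without the astrocyte-marked nuclei these totals were 61 (6.69%) and 378 (41.4%) of 912.

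**Figure D4:**
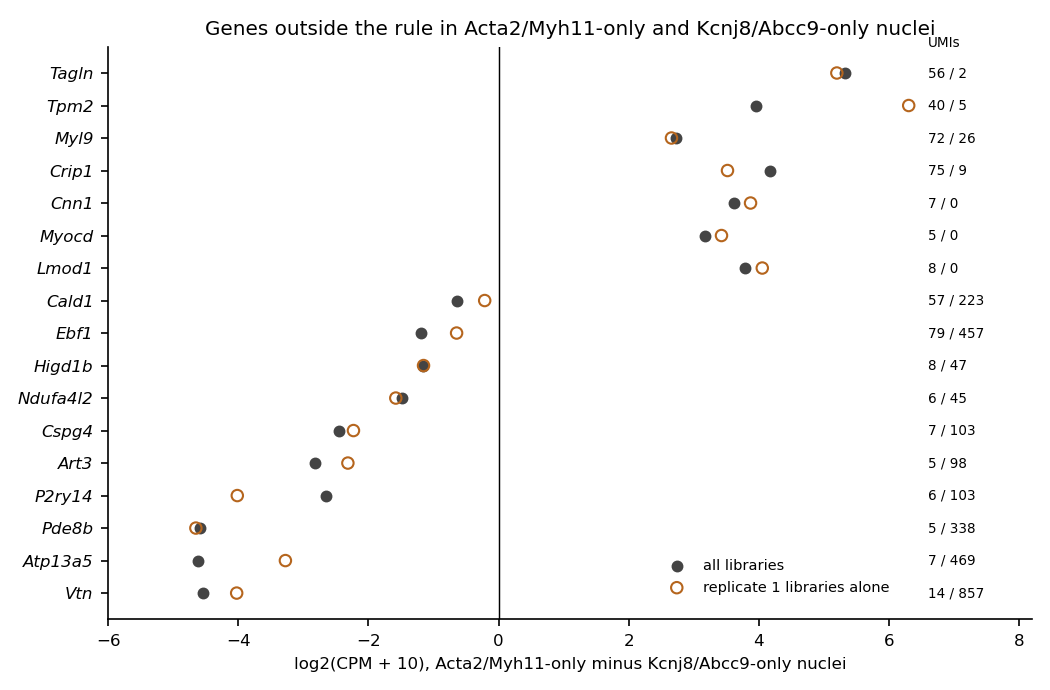
Difference of log2(CPM + 10) between smooth-muscle-marked (Acta2/Myh11-only) and pericyte-marked (Kcnj8/Abcc9-only) nuclei, over all libraries (filled) and within the replicate 1 libraries (open); numbers give the UMIs in smooth-muscle-marked / pericyte-marked nuclei over all libraries. Tagln, Tpm2 and Myl9 lie right of 0 and Vtn, Atp13a5 and Pde8b left of it in both; where 1 side has 0 UMIs the position depends on the 10 CPM added.

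Many smooth muscle genes are switched on by serum response factor with its coactivator myocardin. Serum response factor binds a short element called the CArG box. In the 250 bases of RefSeq sequence (GRCm38.p6) before each start site, a perfect box on either strand was found in 1 of 20 smooth muscle genes with a sequence, in 0 of 22 pericyte genes and in 439 of 27025 genes in all (1.62%). The 1 gene was Myl9, whose window is shown because the gene separated the subsets in the replicate 1 libraries (chr2:156775214-156775463, plus strand). In replicates 2 and 3 it had 0 UMIs in smooth-muscle-marked and 15 in pericyte-marked nuclei. The box, in capitals, begins 161 bases before the start site.
Myl9: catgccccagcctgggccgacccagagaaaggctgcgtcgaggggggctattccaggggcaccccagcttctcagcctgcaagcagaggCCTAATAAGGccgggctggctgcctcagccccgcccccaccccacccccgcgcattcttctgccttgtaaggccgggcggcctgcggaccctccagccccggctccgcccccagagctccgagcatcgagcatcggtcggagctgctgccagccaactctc
A match is a description of the letters and not of binding, and the absence of a match says only that this form of the element is not in the window.

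The genotype did not enter the rule, so PHD1-/- and PHD1+/+ mural nuclei can be compared over libraries. The study asked what loss of PHD1 changes in the cord of SOD1G93A mice. Egln2 (chr7:27158658-27166802, minus strand, GRCm38) had 0, 0 and 1 UMI in mural nuclei of PHD1-/- libraries and 7, 1 and 4 UMIs in those of PHD1+/+ libraries. That is 0, 0 and 12.5 CPM in PHD1-/- and 72.8, 18.2 and 79.1 CPM in PHD1+/+. The groups did not overlap, although a count of 0 allows up to 63.5 and 82.7 CPM (3 UMIs of the library) in PHD1-/- replicates 1 and 2. The means were 4.15 ± 7.19 CPM in PHD1-/- and 56.7 ± 33.5 CPM in PHD1+/+ (mean ± SD of 3 libraries each), and a two-sided exact permutation test gave p = 0.1, which is as low as 3 libraries against 3 can reach. Without the astrocyte-marked nuclei the values were 0, 0 and 22.8 CPM in PHD1-/- and 67.0, 0 and 88.2 CPM in PHD1+/+, and the groups overlapped. In all other nuclei Egln2 was at 9.68, 8.98 and 10.1 CPM in PHD1-/- and 29.4, 18.6 and 16.2 CPM in PHD1+/+. The deleted part of the gene is not given, so 3' reads check the genotype only in part.

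The share of mural nuclei overlapped between the genotypes. It was 0.638% (exact 95% interval 0.460 to 0.861), 0.365% (0.241 to 0.531) and 0.818% (0.608 to 1.08) of nuclei in PHD1-/- replicates 1 to 3. In PHD1+/+ replicates 1 to 3 it was 0.939% (0.752 to 1.16), 0.412% (0.284 to 0.578) and 0.560% (0.378 to 0.798). These Clopper-Pearson intervals cover counting error only. The libraries of the genotypes overlapped, and the spread within each genotype exceeded the difference of the means. The means were 0.607 ± 0.228% in PHD1-/- and 0.637 ± 0.272% in PHD1+/+ (mean ± SD of 3 libraries each), a difference of -0.0299 percentage points (p = 0.9, two-sided exact permutation). The direction rested on single libraries: the difference was 0.0910 points without PHD1-/- replicate 2, 0.121 without PHD1+/+ replicate 1, and 0.106 with replicates 2 and 3 alone. A share of nuclei cannot tell fewer mural cells from fewer nuclei recovered.

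Smooth-muscle-marked nuclei were 35.7% (exact 95% interval 21.6 to 52.0), 3.70% (0.0937 to 19.0) and 10% (3.33 to 21.8) of mural nuclei in PHD1-/- replicates 1 to 3. In PHD1+/+ replicates 1 to 3 they were 26.7% (17.8 to 37.4), 0% (0 to 10.6) and 0% (0 to 11.6). Both replicate 1 libraries were far above the others of their genotype. The means were 16.5 ± 17.0% in PHD1-/- and 8.91 ± 15.4% in PHD1+/+ (mean ± SD of 3 libraries each; p = 0.5, two-sided exact permutation), and without PHD1-/- replicate 1 the difference of 7.56 points became -2.06. With replicates 2 and 3 alone it was 6.85 points, resting on 6 nuclei of PHD1-/- and 0 of PHD1+/+. Without the nuclei marked by another class the shares were 32.4%, 0% and 6.25% in PHD1-/- and 25.9%, 0% and 0% in PHD1+/+. The median depth per mural nucleus averaged 1048 ± 357 UMIs in PHD1-/- and 1052 ± 219 UMIs in PHD1+/+ (mean ± SD of 3 libraries each; p = 1, two-sided exact permutation).

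No gene passed the adjusted threshold between genotypes. With UMIs summed per library, edgeR's quasi-likelihood test called 0 of 945 genes (0%) at a Benjamini-Hochberg adjusted p under 0.05. At an unadjusted p under 0.05 there were 17 (1.8%), of which 5 (0.529%) were higher and 12 (1.27%) lower in PHD1-/-. Over all tested genes the median log2 fold change, PHD1-/- over PHD1+/+, was -0.05, with 433 above 0 and 512 below. Libraries of the genotypes did not overlap for 19 genes higher in PHD1-/- (2.01%) and 35 lower (3.7%). Without PHD1-/- replicate 1, 90 genes had an unadjusted p under 0.05 and again 0 were called. DESeq2's Wald test on the sums of all 6 libraries called 1 gene, with 15 at an unadjusted p under 0.05.

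No pericyte or contraction gene was called between the genotypes. Vtn had a log2 fold change of 0.46 (SE 0.39), with 139, 176 and 273 UMIs in PHD1-/- and 177, 205 and 103 UMIs in PHD1+/+. Ebf1, a transcription factor of mural cells, stood at 0.01 (SE 0.35), Atp13a5 at 0.19 (SE 0.52) and Pla1a, a phospholipase, at 0.83 (SE 0.59). Of 12 pericyte genes tested, 10 were above 0 and 2 below, with a median of 0.13 beside -0.05 for all genes. Of 4 smooth muscle genes 2 were above 0, with a median of 0.00: Cald1 at 0.41 (SE 0.38), Slc38a11 at 0.01 (SE 0.35), Kcnma1 at -0.01 (SE 0.56) and Ntrk3, a neurotrophin receptor, at -0.60 (SE 0.37). Between the subsets above, Cald1 (-0.63) and Slc38a11 (-1.87) were lower in smooth-muscle-marked than in pericyte-marked nuclei over all libraries. Kcnma1 (0.83) and Ntrk3 (0.99) were higher there, but Kcnma1 was not within the replicate 1 libraries (-0.68). The 4 genes therefore did not measure smooth muscle alone. The contractile machinery gave 11 of 15 genes above 0 and a median of 0.11. Prkg1 stood at 0.12 (SE 0.37), Cacna1c at -0.11 (SE 0.33) and Rock2, a kinase that sustains contraction, at 0.40 (SE 0.36). Of 9 transporters 7 were above 0 (median 0.13), with Slc16a12 at 0.36 (SE 0.44). Each of these named genes lay less than 2 standard errors from 0. The list medians changed sign with 1 library left out: to -0.02 for pericyte genes and -0.21 for transporters without PHD1+/+ replicate 1, and to -0.37 for smooth muscle and -0.02 for contraction genes without PHD1-/- replicate 1.

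The genes of the rule showed no called difference either, although they bear on how members were found. Pdgfrb stood at -0.05 (SE 0.36), Rgs5 at -0.14 (SE 0.35), Notch3 at -0.37 (SE 0.41), Kcnj8 at -0.06 (SE 0.48), Abcc9 at 0.43 (SE 0.56) and Myh11 at 0.84 (SE 1.16). Acta2 was not tested, as it was under the filter on low counts. Among signalling genes, Pdgfd, a ligand of PDGFRB, had 13, 11 and 23 UMIs in PHD1-/- and 11, 9 and 9 UMIs in PHD1+/+. Its log2 fold change was 0.83 (SE 0.33, unadjusted p = 0.0366 and adjusted p = 0.995 by edgeR). It was the 1 gene of the pathway lists with an unadjusted p under 0.05. Bmpr2, a receptor for bone morphogenetic proteins, stood at 0.28 (SE 0.62), and the Notch coactivators Maml2 and Maml3 at 0.28 (SE 0.47) and 0.03 (SE 0.40). Of 11 matrix genes 7 were above 0 (median 0.21), with Sparcl1 at 0.22 (SE 0.33), Lama2 at 0.21 (SE 0.35) and Mgp, an inhibitor of calcification of the vessel wall, at -0.69 (SE 0.44).

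HIF and interferon genes were mostly too low to test. Of 13 hydroxylase and HIF genes only Epas1 was tested, with 4, 10 and 18 UMIs in PHD1-/- and 10, 16 and 12 UMIs in PHD1+/+ and a log2 fold change of -0.19 (SE 0.43). Of 36 HIF targets and glycolysis genes 4 were tested, all below 0 with a median of -0.41. That median was 0.54 without PHD1+/+ replicate 1, 0.28 with replicates 2 and 3 alone and 0.11 without the astrocyte-marked nuclei, so its direction was not stable. They included Aldoc at -0.52 (SE 0.61), Aldoa at -0.03 (SE 0.71) and Pkm at -0.29 (SE 0.62); Aldoc is also an astrocyte marker. Of 57 interferon-stimulated genes in the files 1 was tested. Ifitm3 had 14, 2 and 5 UMIs in PHD1-/- and 26, 15 and 4 UMIs in PHD1+/+, with a log2 fold change of -0.75 (SE 0.87), and the libraries overlapped. No complement, cytokine or fibrosis gene was tested, so a response of these lists in mural nuclei was not detectable at this depth. The 18 ribosomal protein genes tested were all above 0 with a median of 0.45, and the summed ribosomal level was 30342, 5510 and 4660 CPM in PHD1-/- and 14461, 4358 and 5026 CPM in PHD1+/+, high in both replicate 1 libraries. The median was -1.19 without PHD1-/- replicate 1, where 1 nucleus held 38 of the 46 Rplp0 UMIs and 29 of the 38 Rpl31 UMIs, and -0.87 with at least 3 rule genes. Of 6 mitochondrial transcripts 3 were above 0, with a median of -0.04 that became 0.97 without PHD1+/+ replicate 1.

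**Figure D5:**
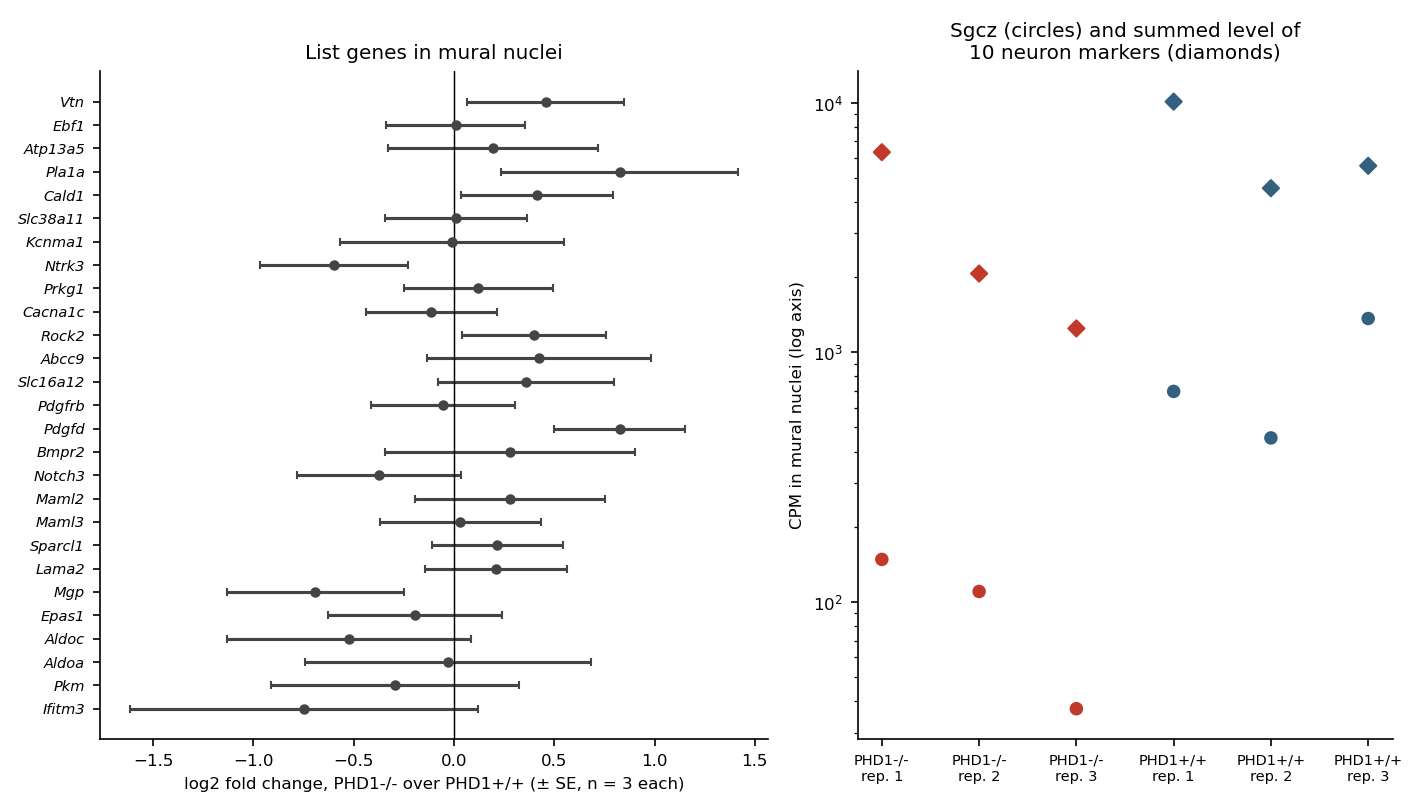
Left, log2 fold change, PHD1-/- over PHD1+/+, of the named list genes in mural nuclei (edgeR, n = 3 libraries each). Bars are standard errors derived from the F statistic of the test. None of these genes was called. Right, level of Sgcz (circles) and summed level of 10 neuron markers (diamonds) in mural nuclei of each library, on a log axis; for both, PHD1-/- (red) includes the lowest values, and for Sgcz the genotypes do not overlap.

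Several of the genes of smallest p that had lower values in PHD1-/- act in neurons. Sgcz (zeta-sarcoglycan, chr8:37522298-38661508, minus strand, GRCm38) had 7, 4 and 3 UMIs in PHD1-/- and 67, 25 and 69 UMIs in PHD1+/+. Its log2 fold change was -3.18 (SE 0.71, adjusted p = 0.995 by edgeR). With the replicate number as a block it was -3.30 (adjusted p = 0.0182) and with DESeq2 the adjusted p was 0.0117, so it was called in both. Most of these UMIs lay in few nuclei: 65 of the 69 in PHD1+/+ replicate 3 came from 1 nucleus. The other genes of smallest p that were lower were Zwint (-1.57), Grm5, a glutamate receptor (-1.68), Tmem59 (-1.25), Csmd3 (-1.40), Gnas, the stimulatory G-protein subunit (-1.15), and Syt11 and Cadps (-1.05 and -1.29), which act in vesicle traffic and release. On the other side, Csgalnact1, which starts chondroitin sulphate chains, had 10, 11 and 22 UMIs in PHD1-/- and 3, 3 and 6 UMIs in PHD1+/+, a log2 fold change of 1.90 (SE 0.52). The libraries of the genotypes did not overlap for it. Thoc2, of messenger RNA export, stood at 1.11, Abi1 and Cap2, both of actin assembly, at 0.95 and 0.82, and Arid1b, Gpcpd1 and Lpp at 0.91, 0.76 and 0.79. The adjusted p of all 16 was 0.995 by edgeR.

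Neuron markers were also detected in the mural nuclei. The summed level of 10 neuron markers was 6326, 2066 and 1246 CPM in PHD1-/- and 10081, 4539 and 5580 CPM in PHD1+/+. The genotypes overlapped, as PHD1-/- replicate 1 lay above PHD1+/+ replicates 2 and 3. All 6 neuron markers tested were below 0 with a median of -1.30. At least 10 UMIs of neuron markers were found in 4 nuclei of PHD1-/- and 14 of PHD1+/+. Of the Sgcz UMIs, 4 of 14 in PHD1-/- and 148 of 161 in PHD1+/+ lay in those nuclei. Their part in the genotype difference of other genes was not tested. With replicates 2 and 3 alone, 10 genes were called, all lower in PHD1-/-: the neuron markers Snhg11, Meg3, Syt1 and Rbfox1, and Sgcz, Lingo2, Nrg3, Nrg1, Lrrtm4 and Dlg2. In PHD1+/+ replicate 3, single nuclei held 52 of 57 UMIs of Snhg11, 50 of 60 of Meg3, 24 of 30 of Syt1 and 83 of 93 of Rbfox1. They also held 19 of 20 UMIs of Lingo2, 60 of 62 of Nrg3, 54 of 55 of Nrg1, 48 of 49 of Lrrtm4 and 50 of 57 of Dlg2. In PHD1+/+ replicate 2 the part in 1 nucleus ran from 12 of 32 (Rbfox1) to 26 of 28 (Lingo2). Over all 6 libraries, edgeR called 0 of 945 genes with all mural nuclei. Without the 78 nuclei marked by another class it called 0 of 357, and 0 had an unadjusted p under 0.05. The marking of those nuclei used neuron markers, among them Snhg11, Meg3, Syt1 and Rbfox1. The fit therefore cannot tell how the 10 calls of replicates 2 and 3 depend on those nuclei. Of 8 astrocyte markers tested, 6 were below 0 with a median of -0.31, and their summed level was 1841, 8899 and 9657 CPM in PHD1-/- and 3568, 8570 and 8212 CPM in PHD1+/+.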

How the data were processed

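Single-nucleus libraries, 6 in all, of lumbar cord were analysed from the deposited counts of UMIs per gene and nucleus, made with Cell Ranger 5.0.2 on mm10 per the submitters' processing notes (5.0.1 per the file headers). No source used here says whether intronic reads were included. UMIs of members were summed per library; edgeR 4.0.16 (R 4.3.3) used TMM, filterByExpr and the quasi-likelihood test over all genes, with DESeq2 1.42.0 as an alternative. The quasi-likelihood test reports no standard error, so each SE was derived as the absolute log2 fold change divided by the square root of its F statistic. Shares and single levels were compared with exact permutation tests over libraries (scipy 1.17.1). Scrublet in Scanpy 1.11.5 marked 0% of nuclei in both replicate 1 libraries, where it has not worked, and 1 member elsewhere, so doublets were kept. The mural members and gene lists were chosen with earlier results of these data known. Named between genotypes were the 8 higher and 8 lower genes of smallest p, the 3 most abundant tested genes and the 1 of smallest p of each list, the HIF list and the rule genes; between mural and other nuclei, the 25 largest differences; between subsets, 10 a side with 20 or more UMIs. Other list genes were named from the lists as examples after their values were seen. The labels give 3 littermate pairs without saying that the replicate number marks one. Deviations from the genotype means correlated at 0.675, 0.388 and 0.390 for equal numbers, but replicates 2 and 3 also correlated across numbers (0.405 and 0.320). These correlations cannot decide whether the numbers mark pairs. The main tests used no pairing, and the replicate number was a block only in an alternative. Leaving out nuclei marked by astrocytes or any other class, and comparing subsets without 1 nucleus or in replicates 2 and 3 alone, were alternatives added after seeing the data. A few genes that these rules name are not reported here. P-values measure the spread between these libraries.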

Additional observations from a re-analysis of the deposited data

How the results depend on the processing

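The mural share differed by -0.0299 points between PHD1-/- and PHD1+/+ and had the other sign with replicates 2 and 3 alone (0.106), at least 3 rule genes (0.00445), nuclei of at least 1000 UMIs (0.0011), nuclei thinned to 1000 UMIs (0.0337) and without nuclei marked by another class (0.0129); leaving out 1 library gave -0.143 to 0.121. The smooth-muscle-marked share then ran from -2.06 to 16.5 points. The median UMI difference was 54.3 with replicates 2 and 3 alone, 13.8 without nuclei marked by another class, and -187 to 170 leaving out 1 library. Genes called were 10 with replicates 2 and 3 alone, 1 under the replicate block, 1 by DESeq2, 7 without a filter on low counts and 0 leaving out each library. Of the 7, Lgals7, Krt15 and Dapl1 rested on 1 nucleus each. Of those lower in PHD1-/-, 1 nucleus each held 66 of 68 Galntl6 UMIs and all 18 Grik1 UMIs of PHD1+/+ replicate 3. In PHD1+/+ replicate 1, 1 nucleus held 14 of 34 Gm32647 UMIs. At an unadjusted p under 0.05 the counts were 68 with replicates 2 and 3 alone, 56 under the replicate block, 15 by DESeq2 and 430 without a filter. They were 4 with at least 3 rule genes, 0 without nuclei marked by another class and 12 to 90 leaving out 1 library. The replicate block changed no other call. Of 12 lists, 8 had a median above 0, against 5 with replicates 2 and 3 alone, 5 with at least 3 rule genes and 5 to 9 leaving out 1 library. Of 45 named genes, 24 were above 0, against 13 with at least 3 rule genes and 12 without nuclei marked by another class, where fewer genes were tested. Of 601 values of named genes under alternatives, 546 kept their sign and 55 did not, and the cause was not tested. With replicates 2 and 3 alone these were Ebf1 (-0.083), Slc38a11 (-0.14), Prkg1 (-0.046), Bmpr2 (-0.046), Maml3 (-0.20), Aldoc (0.35) and Pkm (0.16). Under the replicate block they were Slc38a11 (-0.0051) and Aldoa (0.11), and with at least 3 rule genes Cacna1c (0.21), Slc16a12 (-0.22) and Lama2 (-0.13). With DESeq2 size factors they were Kcnma1 (0.044), Pdgfrb (0.0052), Aldoa (0.026) and Kcnj8 (0.0078), with DESeq2 Kcnma1 (0.053) and Aldoa (0.060), and without a filter Aldoa (0.047). Without astrocyte-marked nuclei they were Aldoa (0.42) and Rgs5 (0.013), and without nuclei marked by another class Ebf1 (-0.0044) and Slc38a11 (-0.053). Leaving out 1 library gave -0.065 to 0.20 for Ebf1, -0.069 to 0.54 for Atp13a5, -0.090 to 0.23 for Slc38a11, -0.71 to 0.35 for Kcnma1, -0.042 to 0.35 for Prkg1, -0.17 to 0.10 for Pdgfrb, -0.12 to 0.70 for Bmpr2, -0.024 to 0.71 for Maml2, -0.29 to 0.22 for Maml3, -0.41 to 0.050 for Epas1, -0.83 to 0.42 for Aldoc, -0.69 to 0.98 for Aldoa, -0.70 to 0.54 for Pkm, -0.26 to 0.064 for Rgs5, -0.29 to 0.38 for Kcnj8 and -0.76 to 1.45 for Myh11. With 27 to 86 mural nuclei in a library, genes of a few UMIs were beyond this depth.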
